A study of Mus musculus with 8 samples.

Results

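The core histone genes (H2A, H2B, H3 and H4) and the linker histone genes (H1) were followed in leukaemic mouse spleen with and without lowered Kdm1a. They were the protein-coding genes whose symbol starts with Hist1h, Hist2h, Hist3h, Hist4h, H2af or H3f3 or is H1f0 or H1fx, which gave 80 of the 54018 gene identifiers in the table. Of these, 67 carry a Hist symbol and are called replication-dependent here: 6 encode H1, 18 H2A, 18 H2B, 12 H3 and 13 H4. The other 13 are variant genes, with 2 for H1, 9 for H2A and 2 for H3. The Hist1 cluster on chromosome 13 holds 54 of the replication-dependent genes, the Hist2 cluster on chromosome 3 holds 10, Hist3 on chromosome 11 holds 2 and Hist4 on chromosome 6 holds 1.

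RNA was measured in 8 libraries of polyadenylated RNA from splenic mononuclear cells of leukaemic C57BL/6 mice, all carrying the Eµ-TCL1A transgene. This transgene places the human oncogene TCL1A under an immunoglobulin enhancer and gives a B cell disease used as a model of chronic lymphocytic leukaemia. Knockdown libraries (Kdm1aKD;Eµ-TCL1A, replicates 1, 2, 5 and 4) came from leukaemic mice with a doxycycline-inducible knockdown of Kdm1a, a demethylase of histone H3. Control libraries (Eµ-TCL1A, replicates 1 to 4) lacked that construct by their genotype label, and the labels do not say whether those mice received doxycycline. The sources used here give neither age, nor length of treatment, nor the cell type in which the knockdown was induced. No label ties a library to 1 animal, so a p-value sets the group difference against the spread between libraries only. That spread may be technical in part or, within the knockdown group, in whole.

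Levels are given as FPKM, which counts fragments relative to transcript length and to the size of the library, so different genes are compared per length. Judged by the spacing of its low values, each library held about 37300000 to 43800000 fragments. Kdm1a had 20.2, 21.0, 15.6 and 15.5 FPKM in knockdown replicates 1, 2, 5 and 4 and 24.2, 21.2, 24.1 and 31.1 FPKM in control replicates 1 to 4. The groups did not overlap (two-sided exact permutation p = 0.0286, the smallest that 4 against 4 libraries can give), but Kdm1a did not pass the test across all genes (limma adjusted p = 0.223). The summed FPKM of 12 B cell markers was 1628 in knockdown replicate 4, 4011 to 4335 in the other knockdown libraries and 4759 to 5233 in control. The sum of 15 monocyte and macrophage markers was 599 to 1073 in knockdown and 171 to 431 in control. Neither sum overlapped between the groups. A log2 difference above 0 was found for 0 of 12 B cell, 15 of 15 monocyte and 0 of 8 plasma cell markers. It was found for 11 of 12 T cell, 12 of 18 erythroid and 4 of 11 neutrophil markers, against 63.7% of all genes tested. At a limma adjusted p under 0.05 there were 3 neutrophil markers, lower in knockdown, and 1 erythroid marker, higher (1.74% of all genes). Knockdown replicate 4 also held 31856 FPKM of 18 erythroid markers against 1183 to 8597 elsewhere. The part of these cell types in the histone levels was not tested. No marker of the B cell, T cell, erythroid, monocyte, neutrophil or plasma cell lists was at 0 in every library. Knockdown replicate 4 and control replicate 4 stood apart, and values without one or both of them are given where they move a result. Xist and Ddx3y levels placed the 4 knockdown libraries and control replicate 1 as female and control replicates 2 to 4 as male. The control libraries thus did not all come from 1 animal, and sex and group can be told apart only through control replicate 1.

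Histones package DNA: an octamer of core histones is wrapped by DNA and a linker histone binds where the DNA enters and leaves. Replication-dependent genes are switched on in S phase, when new DNA must be packaged. Their messages mostly have no introns and end in a conserved stem-loop bound by the protein Slbp, not in a poly(A) tail. Variant genes are expressed through the cell cycle or in resting cells, and most yield polyadenylated messages. A library of polyadenylated RNA therefore holds replication-dependent messages only as far as they carried a tail or entered otherwise, and the share that did so was not measured. In mixed spleen cells, fewer cells of a type and less RNA per cell cannot be told apart.

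The stem-loop is shown because it separates the classes. It was searched on the transcribed strand in the first 150 bases after the stop codon, as 16 bases starting with GG, with arms of 6 bases that are reverse complements and a loop of 4 bases starting with T. It was found in 44 of the 48 replication-dependent genes with at least 60 annotated bases after the stop codon (91.7%), in 1 of 10 variant genes and in 30 of 20477 other protein-coding genes (0.147%). Annotated transcripts of 13 further replication-dependent genes hold no bases after the stop codon. The most frequent form was shared by 26 genes. Below, the arms are in capitals with 5 flanking bases on each side, 5′ to 3′ on the strand of the gene, from GENCODE M21 transcripts. The stem-loops lie at chr13:23739512-23739527 (plus strand), chr13:22040966-22040981 (minus), chr11:58955172-58955187 (plus), chr11:58949349-58949364 (plus) and chr9:44335240-44335255 (plus) of GRCm38, in the 3′ untranslated regions.
Hist1h1c: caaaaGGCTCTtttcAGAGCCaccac
Hist1h4i: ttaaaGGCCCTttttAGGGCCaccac
Hist3h2a: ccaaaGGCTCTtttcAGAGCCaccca
Hist3h2ba: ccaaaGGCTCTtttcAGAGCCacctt
H2afx: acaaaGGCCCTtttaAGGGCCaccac
The first 4 belong to the most abundant replication-dependent genes in which the stem-loop was found, and H2afx is the variant gene that holds it.

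No histone gene passed the test between the groups. Of the 80, 30 reached 1 FPKM in at least 4 of the 8 libraries and were tested, 22 replication-dependent and 8 variant. None had an adjusted p under 0.05 (limma on log2(FPKM + 1), Benjamini-Hochberg over 12890 genes), against 224 of all 12890 genes (1.74%; 1.63% higher and 0.109% lower in knockdown). The adjusted p of the 30 ran from 0.207 to 0.995. At an unadjusted p under 0.05 there were 2, H2afz and H1f0, both higher in knockdown, against a background of 19.2% of all genes in either direction and 15.8% higher. Another fit, limma with array weights, called 761 of all 12890 genes and 1 of the 30 histone genes, Hist1h2bc, at an adjusted p of 0.0485. The adjusted p of Hist1h2bc ran from that value to 0.998 over all alternatives. The knockdown mean was higher on the log2 scale for 19 of the 30 genes, while the share over all genes tested was 63.7%.

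Among tested variant genes 7 of 8 differences were above 0 and the median log2 difference was 0.37. Of the tested replication-dependent genes, 12 were above 0 and 10 below, with a median of 0.032. Over all tested genes the median was 0.13. These medians describe the genes that passed the filter, and the difference between the classes was not tested. With median-of-ratios scaling the 3 medians were 0.22, −0.066 and 0.0041, in the same order of classes. The order is not stable. Without control replicate 4 the medians were 0.24 for variant, 0.26 for replication-dependent and 0.095 for all genes. With sex as a covariate they were 0.21, 0.47 and 0.068, values that set the knockdown libraries against control replicate 1 alone. With no filter, or without knockdown replicate 2, the replication-dependent median (0.080 and 0.17) was also above that of all genes (0.010 and 0.11). Without knockdown replicate 4 the medians were 0.18, −0.22 and 0.14, and with the S phase level as a covariate −0.089, −0.49 and 0.11.

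**Figure D1:**
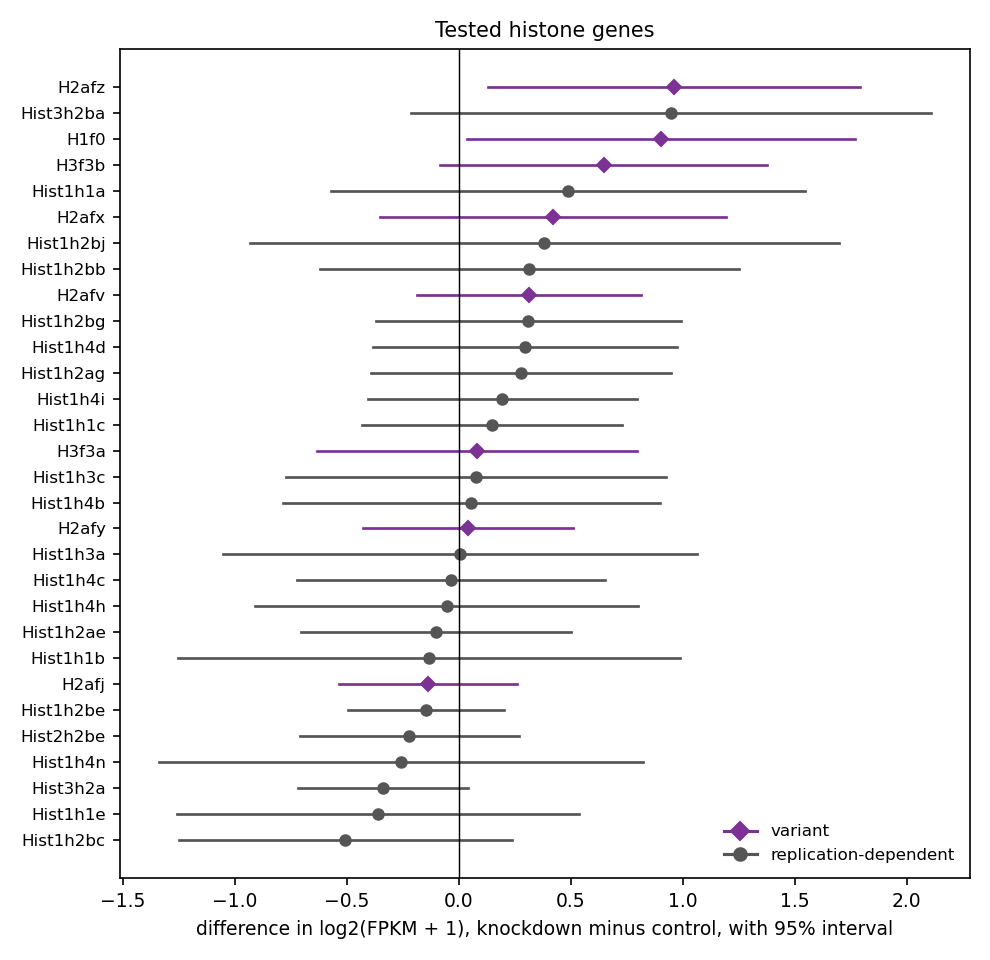
Difference between knockdown and control in log2(FPKM + 1) on the horizontal axis for the 30 tested histone genes, with the limma 95% interval as a line; diamonds are variant genes and circles replication-dependent genes. The intervals of H2afz (0.13 to 1.79) and H1f0 (0.04 to 1.77) lie above 0 and the other 28 include it, and none of the 30 passed the adjusted threshold.

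H2afz, which encodes H2A.Z, a variant placed in nucleosomes around transcription start sites, had the largest log2(FPKM + 1) difference of the tested histone genes. With a pseudocount of 0.1 the difference of Hist3h2ba was larger (1.11 against 0.96). The ratios of mean FPKM of Hist3h2ba (3.18) and Hist1h1a (2.23) were also above that of H2afz (2.04). H2afz (ENSMUSG00000037894, chr3:137864487-137866922 of GRCm38, plus strand) had 291, 362, 392 and 840.4 FPKM in knockdown replicates 1, 2, 5 and 4. In control replicates 1 to 4 it had 257, 255, 286 and 128 FPKM. Every knockdown library was above every control library, though knockdown replicate 1 exceeded control replicate 3 only slightly, and the replicate 4 libraries were the extremes of both groups. The means were 471 ± 249.6 and 232 ± 70.3 FPKM (SD, n = 4 each), a log2 difference of 0.96 ± 0.37 (SE; limma adjusted p = 0.207; two-sided exact permutation p = 0.0286). Non-overlap with knockdown higher was found for 11.2% of all genes tested and with knockdown lower for 1.9%. Without both replicate 4 libraries the difference was 0.38, and with the erythroid marker level as a covariate it was 0.77.

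The difference of H2afz moved with the level of S phase genes. The mean log2(FPKM + 1) of 41 S phase genes was 4.57 to 5.92 in the knockdown libraries and 4.07 to 4.50 in the control libraries, with no overlap. With this level as a covariate the log2 difference of H2afz was −0.037 and the median over the 8 variant genes −0.089. With the same covariate the difference was 0.14 for H1f0 and 0.15 for H3f3b. Since the S phase level separates the groups without overlap, both cannot be told apart with 8 libraries.

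The other H2A variants differed less. H2afv, the paralogue of H2afz that encodes the other H2A.Z protein, had 72.9, 90.4, 75.1 and 105 FPKM in knockdown replicates 1, 2, 5 and 4. Its control replicates 1 to 4 had 69.1, 88.6, 74.6 and 47.3 FPKM. The H2afv groups overlapped, with a log2 difference of 0.31 (adjusted p = 0.454), or 0.038 without both replicate 4 libraries. H2afx, whose protein is phosphorylated at DNA breaks, had 65.6, 99.3, 44.4 and 144 FPKM in knockdown and 46.1, 65.5, 52.6 and 80.4 FPKM in control. Replicate 4 was the highest H2afx library in each group, and the log2 difference was 0.42 (adjusted p = 0.515), or 0.14 without knockdown replicate 4. H2afj, a mammalian H2A variant, had 37.3, 48.2, 40.9 and 52.9 FPKM in knockdown against 44.4, 59.6, 49.6 and 43.9 FPKM in control. It was the 1 tested variant gene with a lower knockdown mean, at −0.14 (adjusted p = 0.688), or −0.27 without both replicate 4 libraries. H2afy, which encodes macroH2A, had 153, 151, 95.6 and 96.5 FPKM in knockdown and 114, 129, 107 and 120.0 FPKM in control. Its knockdown libraries lay on both sides of all controls, and the difference was 0.043 (adjusted p = 0.926), or 0.16 without both replicate 4 libraries. H2afy2, the second macroH2A gene, stayed at 0.0742 to 0.195 FPKM, and H2afb1, H2afb2 and H2afb3, testis variants on the X chromosome, were listed at 0 in all 8 libraries.

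**Figure D2:**
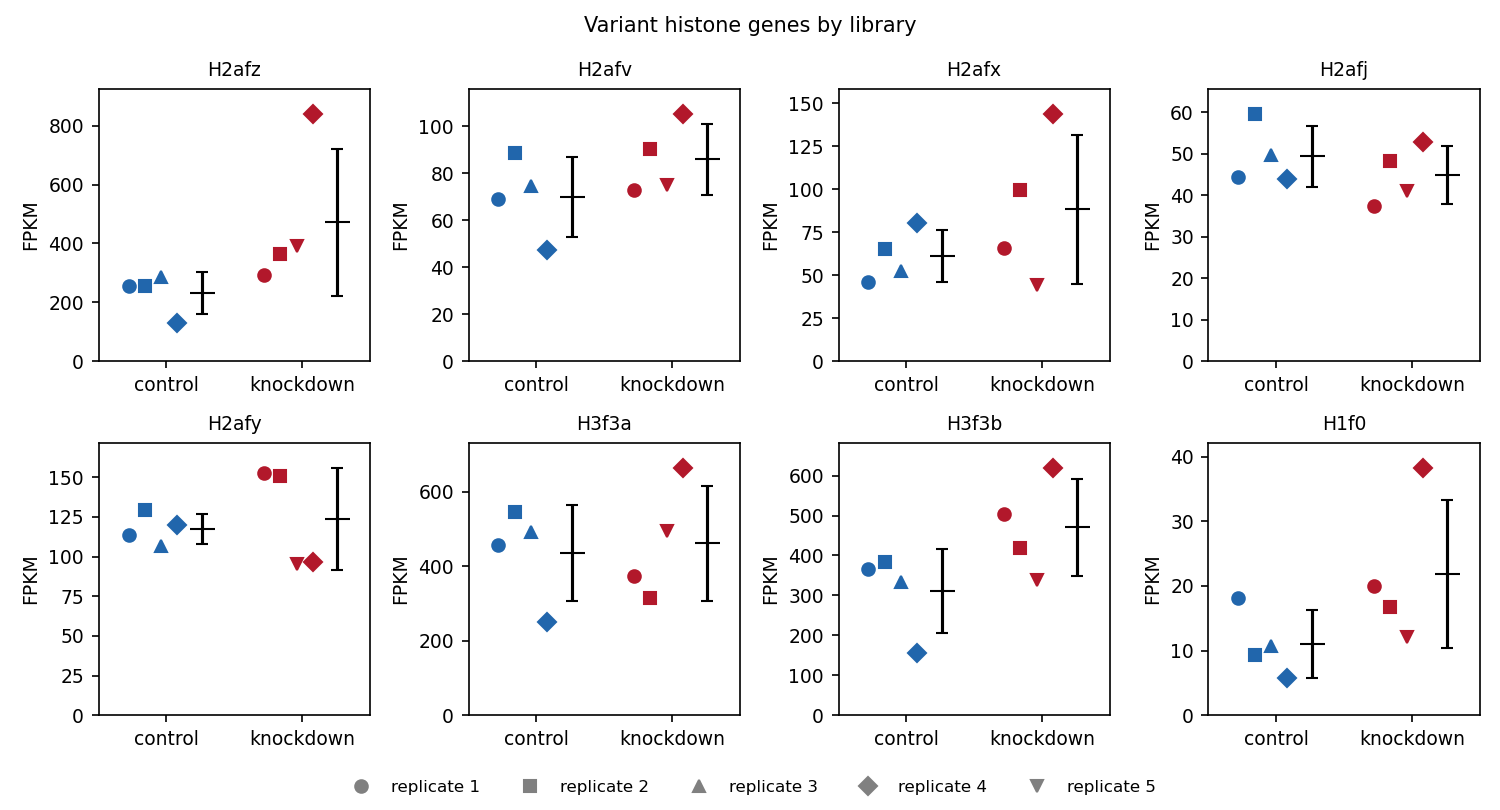
FPKM of the 8 tested variant histone genes (vertical axes, each starting at 0) in control (blue) and knockdown (red) libraries; the marker shape gives the replicate number and black bars the mean and SD of 4 libraries. Knockdown replicate 4 is the highest of its group in each panel except H2afy, and control replicate 4 is the lowest of its group for H2afz, H2afv, H2afj, H3f3a, H3f3b and H1f0.

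The H3 replacement genes H3f3a and H3f3b encode the same protein and supply H3 outside S phase. H3f3b (ENSMUSG00000016559, chr11:116021912-116027962, minus strand) had 504, 418, 339 and 619.8 FPKM in knockdown replicates 1, 2, 5 and 4 and 366, 385, 334 and 155 FPKM in control replicates 1 to 4. Knockdown replicates 1, 2 and 4 were above all controls, replicate 5 lay within the control range, and the log2 difference was 0.65 ± 0.33 (SE; limma adjusted p = 0.307; two-sided exact permutation p = 0.0857). H3f3a (ENSMUSG00000060743, chr1:180800832-180813943, minus strand) had 373, 314, 496 and 664 FPKM in knockdown and 457, 546, 491 and 251 FPKM in control. Its knockdown replicates 1 and 2 were below control replicates 1 to 3, and the difference was 0.08 ± 0.32 (adjusted p = 0.906). Without both replicate 4 libraries the difference was −0.36 for H3f3a and 0.20 for H3f3b. H3f3b made up 57.5%, 57.1%, 40.6% and 48.3% of the FPKM of both genes in knockdown replicates 1, 2, 5 and 4, and 44.5%, 41.4%, 40.4% and 38.2% in control replicates 1 to 4. Knockdown replicates 1, 2 and 4 were thus above all controls in this share and replicate 5 among them.

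H1f0, the linker histone of resting and differentiating cells, had the other interval above 0. H1f0 (ENSMUSG00000096210, chr15:79028450-79030504, plus strand) had 20.02, 16.8, 12.1 and 38.3 FPKM in knockdown replicates 1, 2, 5 and 4 and 18.2, 9.38, 10.8 and 5.72 FPKM in control replicates 1 to 4. Control replicate 1 lay among the knockdown libraries. The means were 21.8 ± 11.5 and 11.0 ± 5.22 FPKM (SD, n = 4 each), and the log2 difference was 0.90 ± 0.39 (SE; limma adjusted p = 0.246; two-sided exact permutation p = 0.0857). With sex as a covariate it was 0.13, a value that sets the knockdown libraries against control replicate 1 alone. Without both replicate 4 libraries it was 0.35. H1fx, the other variant linker gene, had at most 1.72 FPKM and was not tested.

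Replication-dependent linker genes were led by Hist1h1c. Hist1h1c (ENSMUSG00000036181, chr13:23738808-23740367, plus strand) was the most abundant replication-dependent gene, with 24.4, 19.7, 19.3 and 42.1 FPKM in knockdown replicates 1, 2, 5 and 4 and 28.4, 20.3, 19.1 and 23.2 FPKM in control replicates 1 to 4. Apart from knockdown replicate 4 the knockdown libraries lay within the control range, and the difference on the log2 scale was 0.15 (95% interval −0.43 to 0.73), or −0.094 without that library. Hist1h1b had 1.29, 0.447, 2.42 and 4.73 FPKM in knockdown and 0.927, 1.92, 1.27 and 6.35 FPKM in control, with replicate 4 the highest of both groups and a difference of −0.13, or 0.28 without control replicate 4. Hist1h1a had 0.790, 0.629, 1.87 and 6.56 FPKM in knockdown and 0.261, 1.095, 1.07 and 1.98 FPKM in control. Its difference of 0.49 was 0.015 without knockdown replicate 4. Hist1h1e had 0.919, 0.537, 2.003 and 1.94 FPKM in knockdown and 0.968, 1.595, 1.09 and 5.61 FPKM in control. Its difference of −0.36 was 0.037 without control replicate 4. Hist1h1d and the testis gene Hist1h1t stayed under 1 FPKM in each library.

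Among the H2A genes of this class, Hist3h2a was the most abundant. Hist3h2a (ENSMUSG00000078851, chr11:58954685-58956830, plus strand) had 6.03, 5.89, 5.58 and 8.13 FPKM in knockdown replicates 1, 2, 5 and 4 and 9.01, 7.52, 8.16 and 8.50 FPKM in control replicates 1 to 4. Knockdown replicates 1, 2 and 5 were below every control library and replicate 4 was within the control range. The means were 6.41 ± 1.16 and 8.30 ± 0.623 FPKM (SD, n = 4 each), with a log2 difference of −0.34 ± 0.17 (SE; limma adjusted p = 0.306; two-sided exact permutation p = 0.0571). Hist1h2ak, next in level, had 0.320, 0.813, 0.553 and 2.60 FPKM in knockdown and 0.381, 1.47, 0.314 and 4.12 FPKM in control and was not tested. Replicate 4 was again its highest library in both groups. Only Hist3h2a, Hist1h2ae and Hist1h2ag of the 18 H2A genes of this class passed the filter.

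The H2B genes held the largest differences of the replication-dependent class, in opposite directions. Hist1h2bc (ENSMUSG00000018102, chr13:23684199-23692908, plus strand) had 7.15, 6.53, 6.92 and 18.9 FPKM in knockdown replicates 1, 2, 5 and 4. In control replicates 1 to 4 it had 18.6, 11.0, 13.9 and 10.3 FPKM. Knockdown replicates 1, 2 and 5 lay close together below all controls, and replicate 4 was above all of them. The log2 difference was −0.50 ± 0.33 (SE; limma adjusted p = 0.418; two-sided exact permutation p = 0.229), and −0.84 without knockdown replicate 4 (adjusted p = 0.116). Hist3h2ba (ENSMUSG00000056895, chr11:58948920-58949533, plus strand) had 2.41, 5.41, 3.68 and 22.7 FPKM in knockdown and 2.20, 2.20, 2.62 and 3.72 FPKM in control. Its difference of 0.95 ± 0.52 (SE; limma adjusted p = 0.341) was 0.36 without knockdown replicate 4. Hist2h2be had 4.35, 5.57, 4.30 and 7.42 FPKM in knockdown and 8.51, 6.15, 5.06 and 6.03 FPKM in control, which overlapped (log2 difference −0.22, adjusted p = 0.594, and −0.36 without knockdown replicate 4).

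The H3 and H4 genes of this class showed no separation of the groups among tested members. Hist1h3a had 1.70, 1.05, 2.28 and 4.99 FPKM in knockdown replicates 1, 2, 5 and 4 and 0.525, 3.10, 1.51 and 5.77 FPKM in control replicates 1 to 4 (log2 difference 0.01). Hist1h3c had 1.08, 1.43, 1.17 and 4.42 FPKM in knockdown and 0.878, 2.29, 0.843 and 3.21 FPKM in control (0.08). Replicate 4 was the highest library of both groups for each of these H3 genes, and without knockdown replicate 4 the differences were −0.29 and −0.24. Hist1h4i (ENSMUSG00000060639, chr13:22040636-22041362, minus strand), the most abundant H4 gene, had 15.7, 18.5, 19.2 and 39.5 FPKM in knockdown and 16.2, 20.7, 19.8 and 18.9 FPKM in control (0.20, 95% interval −0.41 to 0.80). Outside knockdown replicate 4 it was nearly even, from 15.7 to 20.7 FPKM, with a difference of −0.082. Hist1h4n had 1.65, 0.448, 1.42 and 3.68 FPKM in knockdown and 0.817, 1.55, 1.43 and 6.86 FPKM in control (−0.26). Here control replicate 4 was the highest of all libraries, and without it the difference was 0.20.

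Of the 50 untested members, 7 were listed at 0 in all libraries and 43 had a value above 0 somewhere. Groups did not overlap for 2 of the untested members, named here after their values were seen and given without a test. Of all untested genes above 0 somewhere, 5.2% did not overlap in either direction. Hist4h4 had 0.185 to 0.747 FPKM in knockdown and 0.109 to 0.150 FPKM in control. Hist2h3c2 had 0.0775 to 0.171 FPKM in knockdown and 0.202 to 0.400 FPKM in control. Among tested members the groups did not overlap for 1, against 13.1% of all genes tested in either direction. A further 2 tested members, Hist1h4d and Hist1h2be, passed the filter mostly through libraries of 1 group.

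Summed over each class, variant genes far exceeded replication-dependent genes in these libraries. The 13 variant genes summed to 1519, 1501, 1495 and 2562 FPKM in knockdown replicates 1, 2, 5 and 4 and to 1372, 1538, 1406 and 833 FPKM in control replicates 1 to 4. The 67 replication-dependent genes summed to 94.6, 87.8, 105 and 249.6 FPKM in knockdown and to 109, 109.8, 96.2 and 167 FPKM in control. Knockdown replicate 4 was the highest library in both sums, while control replicate 4 was lowest in the variant sum and highest of the controls in the other. The ratio of the group means was 1.37 for variant genes and 1.11 for replication-dependent genes, and 1.05 and 0.911 without both replicate 4 libraries. Without knockdown replicate 4 alone the replication-dependent ratio was 0.794.

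Variant genes held most of the H3 and H2A levels but not of H1. H3f3a and H3f3b held 96.4% to 99.4% of all H3 FPKM, and variant genes held 94.8% to 98.6% of all H2A FPKM. For H1 the variant genes averaged 22.8 FPKM in knockdown and 11.4 FPKM in control, below the 32.9 and 29.2 FPKM of the replication-dependent genes. The replication-dependent share of all histone FPKM was 5.52% to 8.88% in 7 libraries and 16.7% in control replicate 4. H2afz was 30.6% of variant H2A FPKM in control replicate 4, 67.8% in knockdown replicate 4 and 42.6% to 60.5% in the other libraries. Histone genes together took 0.175% to 0.384% of a library's summed FPKM.

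**Figure D3:**
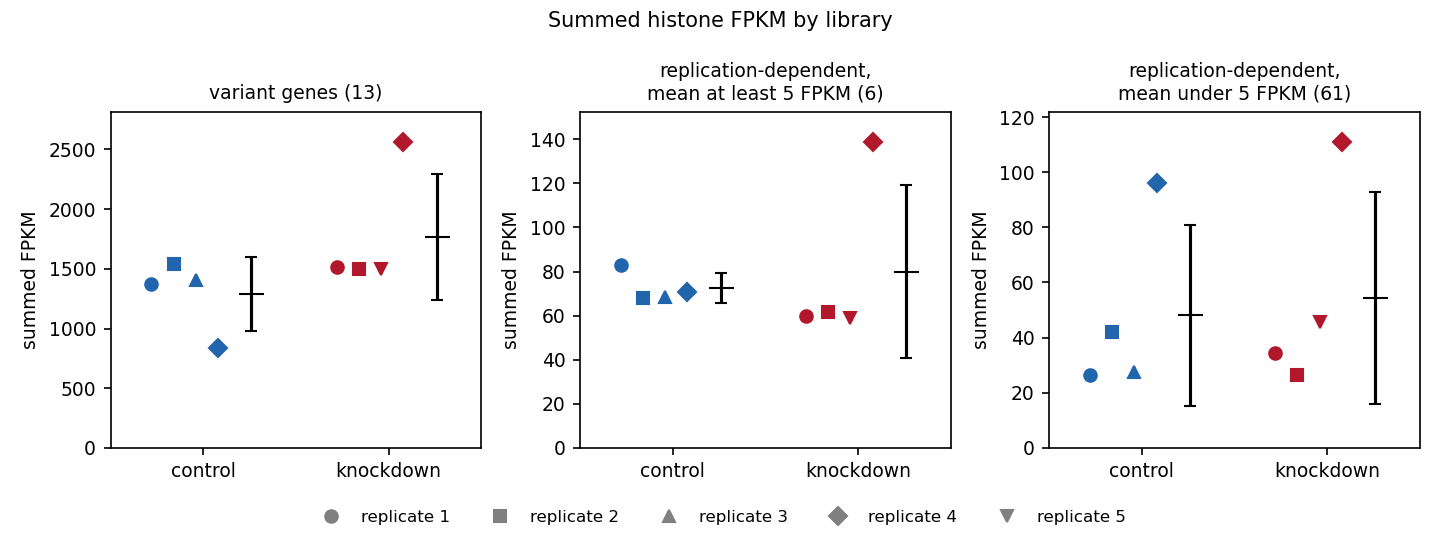
Summed FPKM (vertical axes, starting at 0) of the 13 variant genes, the 6 replication-dependent genes with a mean of at least 5 FPKM and the 61 others, in control (blue) and knockdown (red); marker shapes give the replicate number and black bars the mean and SD of 4 libraries. Control replicate 4 is lowest of all in the left panel (833), inside the control range in the middle panel (70.6), and second only to knockdown replicate 4 in the right panel (96.2 against 111).

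Abundant and scarce replication-dependent genes divided the libraries differently. The 6 with a mean of at least 5 FPKM (Hist1h1c, Hist1h4i, Hist1h2bc, Hist3h2a, Hist2h2be and Hist3h2ba) summed to 59.98, 61.5, 59.1 and 139 FPKM in knockdown replicates 1, 2, 5 and 4 and to 82.8, 67.9, 68.7 and 70.6 FPKM in control replicates 1 to 4. Knockdown replicates 1, 2 and 5 were below every control here. The other 61 genes summed to 34.6, 26.25, 45.7 and 111 FPKM in knockdown and to 26.4, 41.9, 27.5 and 96.2 FPKM in control. In this sum the libraries of both groups lay between 26.25 and 45.7 FPKM except the replicate 4 libraries.

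This pattern ran through most scarce genes. Of the 52 replication-dependent genes with a mean of 0.1 to 5 FPKM, knockdown replicate 4 was the highest knockdown library for 45 (86.5%) and control replicate 4 the highest control library for 38 (73.1%). For all 9387 genes of the table with such a mean the shares were 23.9% and 34.3%. Of the 10 variant genes with a value above 0, knockdown replicate 4 was highest of its group for 8 and control replicate 4 lowest of its group for 6. Over all genes tested these shares were 35.1% and 47.0%, so the second count lies near its background. Genes that share sequence are not independent of each other in such counts.

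**Figure D4:**
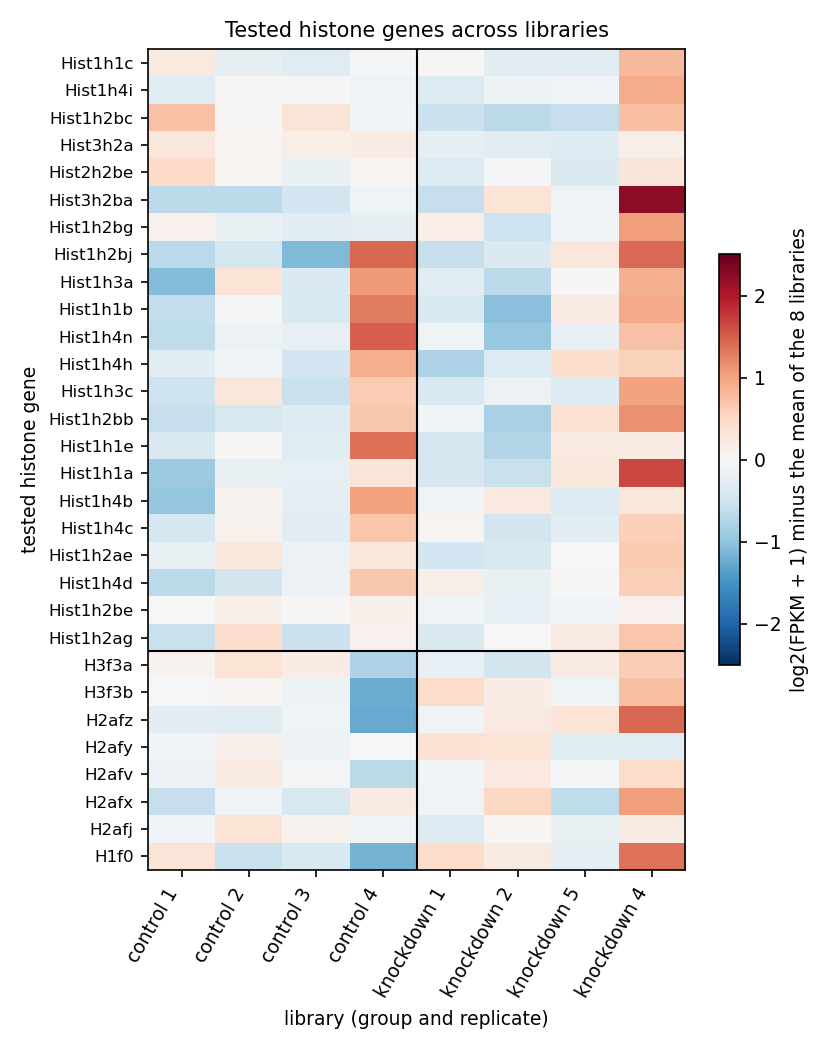
Each tested histone gene (vertical axis; replication-dependent above the line and variant below, each ordered by mean FPKM) in the 8 libraries (horizontal axis), coloured by log2(FPKM + 1) minus the gene's mean over the 8 libraries. Both replicate 4 libraries are red for most scarce replication-dependent genes such as Hist1h2bj (9.71 FPKM in knockdown and 9.88 FPKM in control), whereas H3f3b, H2afz and H1f0 are blue in control replicate 4.

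Replicate 4 libraries also stood apart in other measures, though not all in the same direction. Mki67, a marker of cycling cells, had 170.3 FPKM in knockdown replicate 4 and 82.3 FPKM in control replicate 4, the highest value of each group. The S phase level, by contrast, was highest in knockdown replicate 4 (5.92) and lowest in control replicate 4 (4.07). Mitochondrial transcripts took 7.47% of FPKM in control replicate 4, the lowest share, and 9.94% to 15.1% in the other libraries. Its sum of FPKM was also the lowest. It held the most FPKM in annotated ribosomal RNA genes, 872 against 206 to 454 elsewhere, while knockdown replicate 4 held the least. Knockdown replicate 4 had the highest erythroid and lowest B cell marker level, as given above. The part of these measures in the histone levels was not tested.

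Annotated 3′ ends were set beside the levels of replication-dependent genes. The 6 with a mean of at least 5 FPKM each had at least 200 annotated bases after the stop codon, from 213 in Hist3h2ba to 2192 in Hist2h2be, with 880 in Hist1h1c, 376 in Hist1h4i, 742 in Hist1h2bc and 1700 in Hist3h2a. Of the 42 genes with fewer than 200 bases none reached a mean of 5 FPKM, the highest being Hist1h2bj at 3.95 FPKM. Scarce genes had long ends too: the 25 genes with at least 200 bases had a median level of 0.547 FPKM against 0.642 FPKM for the 42 others. Spearman's rho between level and annotated length over the 67 genes was 0.14, given as a description since many share sequence. The bounds of 200 bases and 5 FPKM were chosen with the values in view. Hist1h2bc is annotated with an intron that begins just after the stop codon. No stem-loop was found in the stretch searched after the stop codon of its spliced transcript, nor in that of Hist2h2be. Bases further along these 3′ ends were not searched. The 3 most abundant genes, Hist1h1c, Hist1h4i and Hist1h2bc, held 45.0% of the class's summed FPKM.

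**Figure D5:**
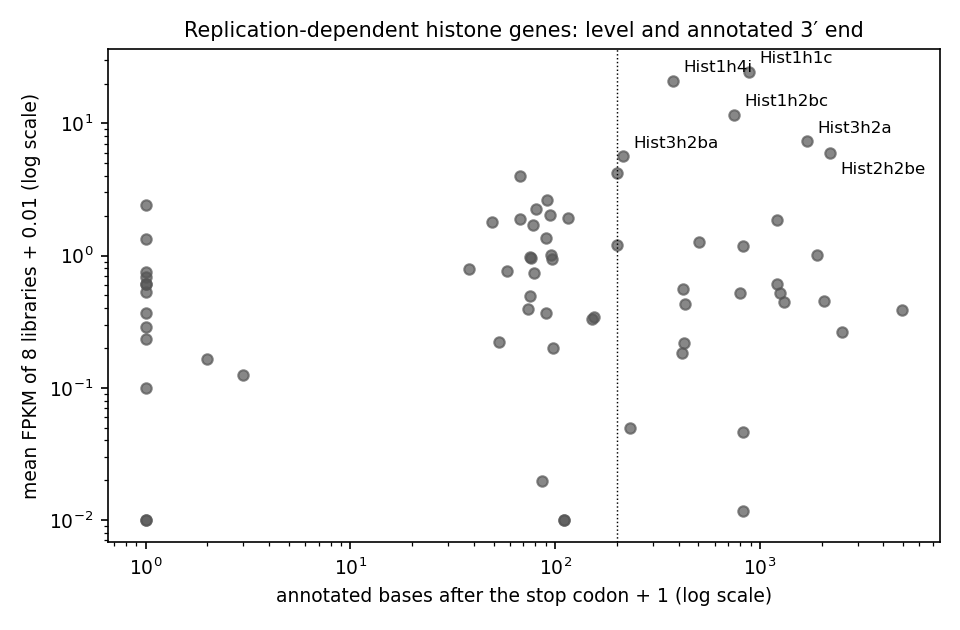
Mean FPKM over the 8 libraries plus 0.01 (vertical log axis) against annotated bases after the stop codon plus 1 (horizontal log axis) for the 67 replication-dependent genes; the dotted line marks 200 bases. The 6 named genes have a mean of at least 5 FPKM and all lie to the right of the line, where many scarce genes lie too.

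Promoters of the replication-dependent genes shared short sequences. RefSeq promoter windows (GRCm38.p6) matched 72 of the 80 genes, 61 of them replication-dependent, and the 250 bases before the start were searched on both strands for 3 motifs: CCAAT, the octamer ATTTGCAT and the TATA box form TATAAA. The first of them, a sequence read by the factor NF-Y, was present in 50 of 61 replication-dependent promoters (82.0%), in 7 of 11 variant promoters and in 37.5% of all promoters in the table. By type it was in 6 of 6 H1, 17 of 17 H2A, 16 of 16 H2B and 8 of 10 H3 promoters but in 3 of 12 H4 promoters. The octamer, read by Oct factors such as Pou2f1, was in 7 of 17 H2A and 7 of 16 H2B promoters and in no H1, H3 or H4 promoter of the class, against 1.81% of all promoters. TATAAA was in 29 of 61 (47.5%) against 14.3% of all. A match is a string of letters and not a measured site. Neighbouring H2A and H2B genes on opposite strands, described below, can share searched bases, so a match can count for both genes.

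Many H2A and H2B genes lie head to head and share 1 promoter region. There were 12 such pairs with under 500 bases between the starts. The region between Hist1h2ae (minus strand) and Hist1h2bg (plus strand) is chr13:23571221-23571395, and that between Hist1h2ag and Hist1h2bj is covered at chr13:22042950-22043197. Both are shown on the plus strand of GRCm38, from RefSeq, with CCAAT, the octamer and TATAAA, or their reverse complements, in capitals.
Hist1h2ae-Hist1h2bg: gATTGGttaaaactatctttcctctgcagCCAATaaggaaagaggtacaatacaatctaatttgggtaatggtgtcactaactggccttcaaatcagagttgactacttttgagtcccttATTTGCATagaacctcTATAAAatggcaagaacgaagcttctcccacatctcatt
Hist1h2ag-Hist1h2bj: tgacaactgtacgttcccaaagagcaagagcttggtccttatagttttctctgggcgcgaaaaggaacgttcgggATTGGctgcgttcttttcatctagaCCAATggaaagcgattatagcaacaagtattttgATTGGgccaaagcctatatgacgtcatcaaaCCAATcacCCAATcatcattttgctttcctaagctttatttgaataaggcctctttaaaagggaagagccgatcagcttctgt
The first holds all 3 motifs and the second CCAAT in both orientations. Levels within a pair ranged from near equal to far apart, and ratios are uncertain for pairs with much shared sequence, named further below. The H2B gene Hist1h2bg had a mean of 4.23 FPKM and its partner Hist1h2ae 1.20 FPKM, and Hist1h2bj had 3.95 FPKM against 0.956 FPKM for Hist1h2ag. The widest ratio of mean levels was that of Hist1h2bc, 11.6 FPKM, to Hist1h2ac, 0.443 FPKM (26.3 times). Hist2h2be had 5.92 FPKM and its partner Hist2h2ac 0.994 FPKM. In Hist1h2ap and Hist1h2br the H2A gene was higher (0.750 against 0.0366 FPKM, 20.5 times). Hist1h2bl and Hist1h2ai (0.276 and 0.357 FPKM) and Hist1h2bf and Hist1h2ad (0.486 and 0.359 FPKM) were close, and Hist1h2ba and Hist1h2aa were both listed at 0. Hist1h2ae overlaps another annotated gene, as do 24 of the replication-dependent genes, and whether counting used strand was not given in the sources used here.

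Of 23 tested genes of histone transcription and 3′ end processing none passed the threshold (1.74% of all genes), 14 were above 0 (63.7% of all genes) and the median log2 difference was 0.30 (0.13 over all genes). Npat, the coactivator of histone genes in S phase, had 6.80, 7.30, 7.45 and 8.80 FPKM in knockdown replicates 1, 2, 5 and 4 and 6.02, 4.82, 4.90 and 4.0045 FPKM in control replicates 1 to 4, without overlap (log2 difference 0.54, adjusted p = 0.151). Cpsf2, a subunit of the cleavage complex, had 17.4, 20.5, 22.04 and 30.3 FPKM in knockdown and 16.7, 14.04, 19.2 and 7.78 FPKM in control, which overlapped (0.65, adjusted p = 0.247). E2f1, an S phase transcription factor, had 7.87, 11.6, 8.05 and 16.01 FPKM against 5.83, 8.28, 6.003 and 8.57 FPKM, also with overlap (0.50, adjusted p = 0.298). For Nfyc, a subunit of NF-Y, the values were 31.0, 34.2, 29.3 and 37.8 FPKM in knockdown and 26.8, 28.4, 26.5 and 24.9 FPKM in control, without overlap (0.30, adjusted p = 0.307). At an unadjusted p under 0.05 there were 2 of the 23, Npat and Cpsf2, against 19.2% of all genes. The 4 genes above have the smallest p of the list, which favours groups without overlap (11.2% of all genes tested, knockdown higher).

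Histone chaperones carry histones to and from DNA. None of the 32 tested passed the threshold (1.74% of all genes), 26 were above 0 (63.7% of all genes), 13 had an unadjusted p under 0.05, all higher (15.8% of all genes), and the median log2 difference was 0.50. Chaf1b, a subunit of the factor that deposits new H3 and H4 behind the replication fork, had 13.6, 27.5, 15.5 and 46.2 FPKM in knockdown replicates 1, 2, 5 and 4 and 5.596, 10.1, 5.12 and 6.04 FPKM in control replicates 1 to 4. Its groups did not overlap (log2 difference 1.67 ± 0.37 SE, limma adjusted p = 0.0602). Chaf1a, its partner subunit, had 9.33, 16.2, 12.4 and 23.4 FPKM against 5.45, 7.61, 5.11 and 6.15 FPKM, also without overlap (1.14 ± 0.27 SE, adjusted p = 0.0698). Supt16, a subunit of the FACT complex, had 40.2, 51.5, 41.2 and 72.5 FPKM against 33.4, 28.7, 32.5 and 25.5 FPKM (0.72, adjusted p = 0.131). Nasp, a carrier of H3 and H4, had 45.9, 66.4, 54.7 and 125.5 FPKM against 37.7, 35.0, 42.5 and 25.5 FPKM (0.95, adjusted p = 0.153). Neither of these overlapped between the groups, and non-overlap with knockdown higher was found for 11.2% of all genes tested. These 4 genes are shown for having the smallest p of their list, a choice that favours separated groups. Mcm2, Nasp and Chaf1b, like Slbp of the processing list, are also in the S phase list, of which 41 of 41 tested genes were above 0 with a median of 0.83, 32 had an unadjusted p under 0.05, all higher, and none passed the threshold. No comparison between these lists and the histone genes was tested.

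Shared sequence limits values of single genes. Of all windows of 50 bases in the transcripts of a gene, at least 50% also occur in another gene for 34 of the 67 replication-dependent genes, with a median of 54.1%, against a median of 9.66% for variant genes. All windows were shared for Hist2h2aa1, Hist2h2aa2, Hist2h3c1, Hist2h3b and Hist2h2bb, and the first 2 of these were listed at 0 throughout, which cannot be read as absence. Hist1h4n (85.6%), Hist1h2ag (78.9%) and Hist1h4b (75.9%) are tested members with much shared sequence and are uncertain in level. The same holds for untested genes of the head-to-head pairs above: Hist1h2ap (93.1%), Hist1h2br (88.7%), Hist1h2bl (82.8%), Hist1h2ai (90.1%), Hist1h2bf (65.8%) and Hist1h2ad (67.1%). Hist1h1a, Hist1h1b and Hist2h2be shared no window. H2afz shared 35.4% of its windows with other genes and H3f3a 27.1%, so part of their fragments may be split with copies.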

How the data were processed

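Polyadenylated RNA of splenic mononuclear cells was read on a NovaSeq 6000 instrument, according to the labels' protocols. The unit of the 1 table the authors deposited is FPKM, for 54018 identifiers and 8 columns. CASAVA and Cufflinks are named, without version, per the submitters' processing notes. Aligner, build, annotation and strand setting were not given in the sources used here. GENCODE M21 (GRCm38) named 53865 identifiers, and coordinates are from it. FPKM holds no counts, and an exact 0 can be a failed estimate. The steps of low values gave depth: in transcripts of at least 1500 bases, 87.1% to 98.5% of values lay within 5% of a whole multiple of 1 fragment, and 1 fragment on 1 kilobase was worth 0.0228 to 0.0268 FPKM.

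Groups came from the labels. Knockdown (n = 4) was compared with control (n = 4) with limma 3.58.1 (R 4.3.3) and a mean-variance trend on log2(FPKM + 1), so differences of low genes are understated. The 12890 genes with 1 FPKM or more in 4 or more libraries were tested, p-values were adjusted by Benjamini-Hochberg, and the threshold was 0.05. Single genes also had a two-sided exact permutation test over 70 assignments. The members and gene lists were chosen with earlier results of these data known. Values per library are given for every tested variant gene, the 2 most abundant replication-dependent genes of each type, the 5 largest differences each way, Kdm1a, and the 4 smallest p of each of 2 machinery lists. On simulated data over 5 sets of 12890 genes, knockdown against control, the fit recovered 49.2% of genes changed by 1 on the log2 scale. Of those changed by 2 it recovered 82.0%. Changed genes were drawn only from those with a control mean of log2(FPKM + 1) above 2. These shares thus do not cover scarcer genes. Alternatives changed the pseudocount, filter, scaling, test, libraries and covariates; sex as a covariate was chosen after seeing the data. Tables and plots used Python 3.11.15, pandas 2.3.3 and matplotlib 3.10.9.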

Additional observations from a re-analysis of the deposited data

Results flagged for a closer look

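In 8 of 46 groups of 4 libraries (21 histone genes and both class sums, each in knockdown and control), 1 library lay far from the other 3 by Dixon's criterion, which chance meets in about 1 group in 20. Knockdown replicate 4 was the distant library in 6 of them and the highest each time. It had 18.9 FPKM of Hist1h2bc against 6.53 to 7.15 in the other knockdown libraries, 4.42 FPKM of Hist1h3c against 1.08 to 1.43, 39.5 FPKM of Hist1h4i against 15.7 to 19.2 and 22.7 FPKM of Hist3h2ba against 2.41 to 5.41. The replication-dependent genes summed to 249.6 FPKM there against 87.8 to 105, and the variant genes to 2562 FPKM against 1495 to 1519. Control replicate 4 was the distant library for Hist1h1e, with 5.61 FPKM against 0.968 to 1.595 in the other controls, and for Hist1h4n, with 6.86 FPKM against 0.817 to 1.55. These groups share libraries and, in the sums, genes, so they are not independent of each other. Hist3h2ba, Hist1h1a and Hist1h1e were included for the size of their difference, which a distant library can produce. The chance share is therefore only a rough guide.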

How the results depend on the processing

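No histone gene passed the threshold under any alternative except array weights, which called 1 (Hist1h2bc) and 761 of all 12890 genes. With S phase level as a covariate the replication-dependent and variant ratios of summed FPKM were 0.578 and 0.841. The medians of these classes were then −0.49 and −0.089. The replication-dependent median was 0.47 with sex, which sets the knockdown libraries against control replicate 1 alone. The cause of these shifts was not tested. Leaving out 1 library, the replication-dependent ratio ran from 0.794 (without knockdown replicate 4) to 1.28 (without control replicate 4), the variant ratio from 1.17 to 1.47, and the medians from −0.22 to 0.26 and from 0.18 to 0.54. Called genes over the whole table numbered 224, and 0 to 761 under the alternatives, with 8 without control replicate 4. Pseudocounts, filters and limma settings do not enter the ratios, and a filter at a mean of 5 FPKM gave no value for genes below it. At 0.0228 to 0.0268 FPKM per fragment on 1 kilobase, members under 1 FPKM rest on few fragments.

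Log2 differences of single genes turned sign in 55 of 414 recomputed values, none of which passed the threshold. With S phase level as a covariate they were −0.14 for H2afv, −0.32 for H2afx, −0.037 for H2afz, −0.52 for H3f3a, −0.56 for Hist1h1a, −0.33 for Hist1h1c, −0.52 for Hist1h3a, −0.68 for Hist1h3c, −0.55 for Hist1h4i and −0.57 for Hist3h2ba. The fit with sex sets the knockdown libraries against control replicate 1 alone. Its differences were 0.0023 for H2afj, −0.043 for H3f3a, 0.56 for Hist1h1b, −0.17 for Hist1h1c, 0.20 for Hist1h1e and 0.50 for Hist1h4n. With erythroid level the differences were −0.0099 for H3f3a, −0.17 for Hist1h3a and −0.14 for Hist1h3c. Median-of-ratios scaling gave −0.10 for H2afy, −0.064 for H3f3a, −0.091 for Hist1h3a and −0.015 for Hist1h3c, and quantile normalization −0.11 for H2afy, −0.030 for Hist1h1c, −0.16 for Hist1h3a and −0.069 for Hist1h3c. Array weights gave −0.36 for H3f3a, −0.048 for Hist1h1c and −0.017 for Hist1h4i. Without both replicate 4 libraries the values were −0.36 for H3f3a, −0.079 for Hist1h1c, −0.018 for Hist1h3c and −0.081 for Hist1h4i. A pseudocount of 5 gave −0.023 for Hist1h3a. Leaving out 1 library gave −0.069 to 0.15 for H2afy, −0.16 to 0.25 for H3f3a, −0.47 to 0.28 for Hist1h1b, −0.094 to 0.27 for Hist1h1c, −0.55 to 0.037 for Hist1h1e, −0.35 to 0.37 for Hist1h3a, −0.24 to 0.30 for Hist1h3c, −0.082 to 0.34 for Hist1h4i and −0.55 to 0.20 for Hist1h4n.

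Replicate numbers did not pair the libraries (correlation of deviations 0.16, 0.047 and −0.12 for numbers 1, 2 and 4). Numbers 3 and 5 each occurred in 1 group only. A block fit thus compares the groups within numbers 1, 2 and 4 alone. With the number as a block, 0 histone genes and 0 of all genes passed the threshold (limma; 2085 of all genes at an unadjusted p under 0.05), the medians were −0.0071 and 0.53 and the ratios 1.13 and 1.502 for replication-dependent and variant genes, and Hist1h3a had −0.12.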
